A study of Mus musculus with 4 samples.

Results

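The 7 genes described here are the mouse receptors for the constant part of IgG, Fcgr1, Fcgr2b, Fcgr3 and Fcgr4, the signalling chains Fcer1g and Tyrobp, and the receptor tyrosine kinase Csf1r. They were chosen by name, all 7 were present among the 27998 genes of both count tables, and each was followed across the immune cell classes of 2 single-cell libraries from embryonic pancreas at E15.5. One library was labelled OGT KO and came from PdxCre;OGTflox/flox;CAG GFP embryos, sorted on endogenous GFP. The control library, labelled WT, came from OGTflox/flox embryos sorted on E-cadherin GFP, so its cells carried floxed and unrecombined Ogt. Pdx1-driven Cre acts in the pancreatic lineage, and blood cells lie outside it. Each genotype had 1 library, sequenced in 2 runs whose barcodes could not be separated, so the design allowed no test of genotype. Genotype and sort cannot be told apart in any value below, and the sources used here do not say whether embryos were pooled.

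IgG that coats a particle is bound by Fc gamma receptors on myeloid cells, which links antibody to phagocytosis and to inflammatory signalling. Fcgr1, Fcgr3 and Fcgr4 encode activating receptors that sit at the membrane with Fcer1g, a short chain whose tyrosine motif (ITAM) recruits the kinase Syk, whereas Fcgr2b encodes the inhibitory receptor, which carries its own inhibitory motif and recruits phosphatases. Tyrobp is a second ITAM chain that pairs with receptors such as Trem2, and Csf1r binds the growth factors CSF1 and IL-34, on which most tissue macrophages depend. In mast cells and basophils Fcer1g is also part of the high-affinity IgE receptor.

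The OGT KO library held 617 barcodes with a median of 15367 UMIs (unique molecular identifiers, 1 per captured transcript), and the control library held 941 with a median of 10756. No barcode was shared. The labels call the sorted cells pancreatic epithelial cells, but 80 of 554 kept OGT KO cells (14.4%, exact binomial 95% interval 11.6 to 17.6) and 805 of 919 kept control cells (87.6%, 85.3 to 89.7) fell in clusters led by leukocyte genes, which goes against that label. Ogt, the targeted gene, stood at 49.7 CPM (66 UMIs, 38.5 to 63.3) in OGT KO immune cells and 62.6 CPM (609 UMIs, 57.7 to 67.8) in control immune cells, where CPM is UMIs of the gene per 1000000 UMIs of the class, all its cells added up, and brackets give exact Poisson 95% limits. In epithelial-like cells Ogt stood at 37.3 CPM (234 UMIs, 32.7 to 42.4) in OGT KO and 57.1 CPM (112 UMIs, 47.0 to 68.7) in control. Which exons Cre removes is left unsaid in the labels, so these counts do not check the deletion. By Xist and no Y-linked UMI, 78 of 80 OGT KO and 120 of 805 control immune cells looked female. A Y-linked UMI was found in 0 OGT KO and 425 control immune cells, and 363 control immune cells were counted as male-looking.

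Immune cells of each library were clustered alone, without the 7 genes. The 80 OGT KO cells formed 5 classes, which were macrophage-like (12 cells, led by Pf4, Lyve1 and C1qc), MHC class II-led (21 cells, Cd74 and H2-Ab1), neutrophil-like (16 cells, Stfa1 and S100a8), mast cell-like (13 cells, Cpa3 and Cma1) and an unnamed class led by the lymphoid genes Cd7 and Igll1 (18 cells). The neutrophil-like class was mixed, with a UMI of the monocyte receptor gene Ccr2 in 12 of its 16 cells. It held Ly6c2 at 752 CPM, against 238 CPM in control Ly6c2 monocyte-like cells, so its levels below are not those of neutrophils alone. The 805 control cells formed 7 classes. Macrophage-like cells made up 4 of them, led by Lyve1 (122 cells), by the iron exporter gene Slc40a1 (115 cells), by DNA replication genes (98 cells) or by mitosis genes (85 cells), 420 cells in all. The others were an unnamed class led by the interferon-induced gene Isg15 and the chemokine receptor gene Ccr2 (166 cells), Ly6c2 monocyte-like cells (114 cells) and an unnamed class of dividing cells led by S100a8 (105 cells). In the Lyve1 class the islet hormone gene Pyy came next after Lyve1 among the leading genes. Pyy stood at 313 CPM there, against 26.6 to 62.0 CPM in the other control immune classes. The part of this RNA in comparisons with the Lyve1 class was not tested. Counting error is the only error in the intervals below, which leave out the spread between cells and between embryos.

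On chromosome 1 of GRCm38 (GENCODE M21), Fcgr2b (ENSMUSG00000026656, chr1:170958617-170976547, minus strand), Fcgr4 (ENSMUSG00000059089, chr1:171018920-171029761, plus), Fcgr3 (ENSMUSG00000059498, chr1:171051174-171064935, minus) and Fcer1g (ENSMUSG00000058715, chr1:171229572-171234365, minus) lie within 275.749 kb. Fcgr1 (ENSMUSG00000015947) lies on chr3:96282909-96293969 (minus). RefSeq promoter sequence on GRCm38.p6 was matched for 5 of the 7, and the bases just before the transcription start are shown for Fcgr4, Fcgr3 and Fcgr1, whose levels separate the immune classes below, and for Fcer1g, the chain they share. Windows reach 150 bases back and stop before the first base of any annotated exon, which leaves none for Fcgr2b. Capitals mark TTCCTC, the reverse complement of GAGGAA, which is the core bound by the myeloid factor PU.1.
Fcgr4 (chr1:171018776-171018919, plus strand): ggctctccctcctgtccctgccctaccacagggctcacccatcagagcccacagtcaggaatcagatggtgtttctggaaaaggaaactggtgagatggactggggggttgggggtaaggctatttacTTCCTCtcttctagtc
Fcgr3 (chr1:171059404-171059553, minus strand): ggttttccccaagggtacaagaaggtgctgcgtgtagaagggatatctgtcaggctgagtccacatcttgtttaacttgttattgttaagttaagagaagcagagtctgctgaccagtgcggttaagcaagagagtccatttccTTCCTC
Fcgr1 (chr3:96293970-96294119, minus strand): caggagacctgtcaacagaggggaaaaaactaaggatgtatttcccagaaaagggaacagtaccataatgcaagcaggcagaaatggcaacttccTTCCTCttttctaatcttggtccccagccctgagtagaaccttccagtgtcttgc
Fcer1g (chr1:171234366-171234499, minus strand): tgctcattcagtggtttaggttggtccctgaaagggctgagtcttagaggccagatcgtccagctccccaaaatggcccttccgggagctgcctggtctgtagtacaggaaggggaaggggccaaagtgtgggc
Each of the 3 activating receptor genes holds the hexamer in the same orientation, starting 22 bases before the start in Fcgr4, 6 in Fcgr3 and 55 in Fcgr1. Searched on both strands over the 250 upstream bases, GAGGAA was present in 3 of the 5 members and in 23.25% of 32851 mouse promoters. The Ets core GGAAGT was present in Fcgr1, Fcgr2b and Fcgr4 and in 19.74% of promoters, overlapping the GAGGAA match in Fcgr4, and the Runx motif TGTGGT was present in Fcgr4 and in 14.05%. A match describes letters and is no evidence of binding. Counts were of transcript ends, where Fcgr2b and Fcgr3 share some sequence. Of the 31-base words in the last 500 bases of Fcgr2b, 5.1% also occur in Fcgr3, so a small part of their reads cannot be told apart.

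Fcgr1, the high-affinity IgG receptor, was counted in every class of both libraries, but with 1 UMI each in OGT KO mast cell-like and Cd7 Igll1-led cells. In the OGT KO library it measured 347 CPM (122 UMIs, 288 to 415) in MHC class II-led cells, 195 CPM (48 UMIs, 144 to 259) in neutrophil-like cells and 153 CPM (32 UMIs, 105 to 216) in macrophage-like cells. In the control library it was highest in the Isg15 Ccr2-led class at 482 CPM (451 to 513) and next in Ly6c2 monocyte-like cells at 357 CPM (323 to 393), and these intervals did not overlap. The other 5 control classes ran from 292 CPM (262 to 324) in the Slc40a1 macrophage-like class to 215 CPM (190.1 to 242) in the Lyve1 macrophage-like class, each overlapping its neighbour in the order. The epithelial-like cells of the same libraries, which should lack the gene, held 3.35 CPM in OGT KO and 40.8 CPM in control.

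Fcgr4, the activating receptor known in mice on monocytes, neutrophils and some macrophages, was the member whose level differed most between control classes. It stood at 183 CPM (354 UMIs, 165 to 203) in the Isg15 Ccr2-led class and 129 CPM (151 UMIs, 109.6 to 152) in Ly6c2 monocyte-like cells. The 4 macrophage-like classes lay between 28.1 CPM (35 UMIs, 19.6 to 39.1) in Lyve1 cells and 59.5 CPM (71 UMIs, 46.5 to 75.1) in Slc40a1 cells, and the dividing S100a8-led class was at 34.2 CPM (56 UMIs, 25.8 to 44.4). The 2 leading classes were separated from each other and from the rest, and the lower 5 overlapped their neighbours. In OGT KO cells Fcgr4 was sparse in every class, with 15 UMIs in MHC class II-led (42.7 CPM (23.9 to 70.4)), 7 in neutrophil-like, 5 in macrophage-like, 2 in Cd7 Igll1-led and 0 in mast cell-like cells, where the upper limit was 19.7 CPM. Neighbouring OGT KO classes overlapped throughout this order.

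Fcgr3, a low-affinity activating receptor, had another order in the control library, with the Slc40a1 and Lyve1 macrophage-like classes on top. It measured 1258 CPM (1196 to 1324) in Slc40a1 and 1199 CPM (1139 to 1262) in Lyve1 macrophage-like cells, which overlapped, then 963 CPM (919 to 1007) in the Isg15 Ccr2-led class. Dividing and replicating macrophage-like cells were at 814 and 797 CPM, Ly6c2 monocyte-like cells at 711 CPM and the dividing S100a8-led class at 467 CPM (435 to 502), the lowest and clear of the rest. In OGT KO cells Fcgr3 was highest in macrophage-like cells at 704 CPM (147 UMIs, 595 to 827). Mast cell-like cells came next at 444 CPM (83 UMIs, 354 to 551), and this was the 1 Fc gamma receptor with many UMIs in that class, present in 12 of 13 cells. MHC class II-led cells held 347 CPM, neutrophil-like cells 284 CPM and Cd7 Igll1-led cells 51.0 CPM (29.7 to 81.6).

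Fcgr2b, the inhibitory receptor, had 1 class apart in each library. In control cells the Isg15 Ccr2-led class held 178 CPM (160.1 to 198), and the other 6 classes lay between 81.7 CPM (68.5 to 96.8) in dividing S100a8-led and 118 CPM (99.7 to 139) in Lyve1 macrophage-like cells, with every neighbour overlapping. In OGT KO cells the MHC class II-led class stood apart at 151 CPM (53 UMIs, 113 to 197). Neutrophil-like, macrophage-like and mast cell-like cells held 13, 9 and 8 UMIs (52.8, 43.1 and 42.8 CPM), which overlapped, and Cd7 Igll1-led cells held 4.

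The chain genes were found in every immune class. Fcer1g measured between 2463 CPM in the dividing S100a8-led class and 3623 CPM in Lyve1 macrophage-like cells of the control library, and between 1188 CPM in mast cell-like and 2437 CPM in macrophage-like cells of the OGT KO library, with Cd7 Igll1-led cells at 327 CPM. Tyrobp (ENSMUSG00000030579, chr7:30413760-30417585, plus strand) took another order. In the OGT KO library it was highest in neutrophil-like cells at 2523 CPM (2329 to 2729.7), with 1916 CPM in MHC class II-led, 1705 CPM in macrophage-like, 1515 CPM in mast cell-like and 389.8 CPM in Cd7 Igll1-led cells. In the control library Tyrobp was highest in Ly6c2 monocyte-like cells at 3379 CPM (3275 to 3486) and lowest in replicating (1969 CPM (1889 to 2053)) and dividing macrophage-like cells (1774 CPM (1706 to 1845)). The non-dividing macrophage-like classes held 2917 CPM (Slc40a1) and 2529 CPM (Lyve1).

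Csf1r (ENSMUSG00000024621, chr18:61100598-61132149, plus strand), the CSF1 receptor, was highest in macrophage-like cells of both libraries. It overlaps Hmgxb3 on the opposite strand, which had 69 UMIs in immune cells. In the OGT KO library macrophage-like cells held 804 CPM (168 UMIs, 687 to 936), MHC class II-led cells 376 CPM (132 UMIs, 314 to 446) and neutrophil-like cells 256 CPM (63 UMIs, 197 to 328). Mast cell-like cells had 3 UMIs and Cd7 Igll1-led cells 6, or 16.1 and 18 CPM, beside 11.8 CPM in the epithelial-like cells of that library, and the intervals of both classes include that level. Among control classes Slc40a1 macrophage-like cells were highest at 1270.1 CPM (1207 to 1336). Lyve1 and dividing macrophage-like, Isg15 Ccr2-led and replicating macrophage-like cells followed at 1004, 941, 939 and 864 CPM, each overlapping the next. Ly6c2 monocyte-like cells at 545 CPM and dividing S100a8-led cells at 441 CPM (409 to 474) were lower and separate from each other.

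**Figure D1:**
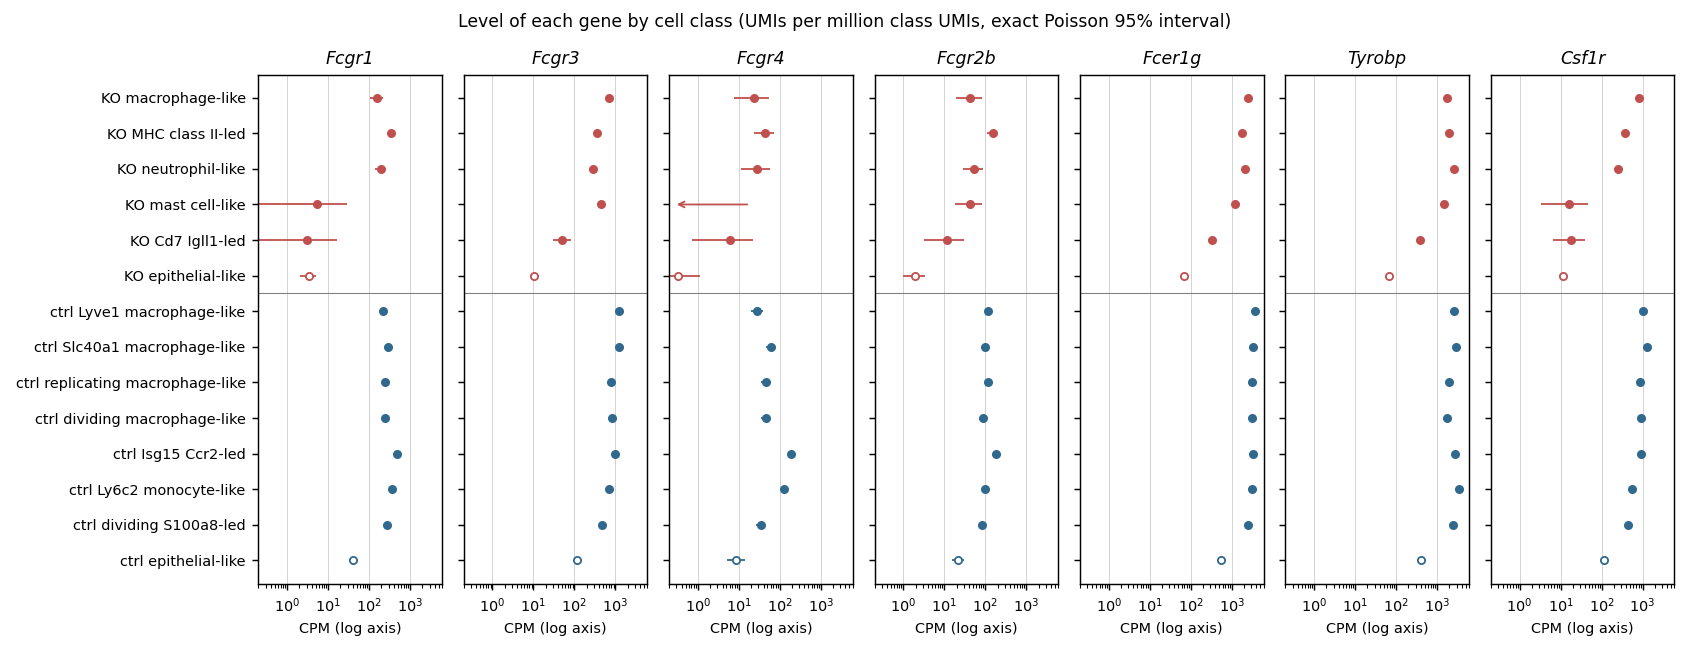
Level of each gene in CPM (log axis) in each cell class, with OGT KO classes in red above the line and control classes in blue below it. Bars are exact Poisson 95% intervals, smaller than the point where not seen, an arrow drawn left from the upper limit marks a class with 0 UMIs, and open circles are epithelial-like cells. Fcgr4 in the control library reaches 183 CPM in the Isg15 Ccr2-led class and 28.1 CPM in Lyve1 macrophage-like cells, while Fcer1g stays between 2463 and 3623 CPM.

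Single cells spread widely within a class. Among the 12 OGT KO macrophage-like cells, Fcgr3 was found in all 12 and lay between 339 and 1409 CPM with a median of 728, Csf1r was found in all 12 and lay between 204 and 2176 CPM with a median of 705, and Fcgr1 was found in 11 of 12 cells. Fcgr2b was found in 4 of 12 of them and Fcgr4 in 5 of 12. In the 420 control macrophage-like cells Fcgr3 lay between 0 and 3829 CPM with a median of 998, Csf1r between 129 and 3345 CPM with a median of 964, and Fcgr1 between 0 and 999 CPM with a median of 212. The per-cell values of Fcgr3 and Csf1r in OGT KO macrophage-like cells fell inside the range of the control cells. Fcgr4 had a median of 0 in each macrophage-like class and medians above 0 in the Isg15 Ccr2-led (139 CPM) and Ly6c2 monocyte-like classes (89.6 CPM) of the control library and in the OGT KO MHC class II-led class (36.6 CPM).

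**Figure D2:**
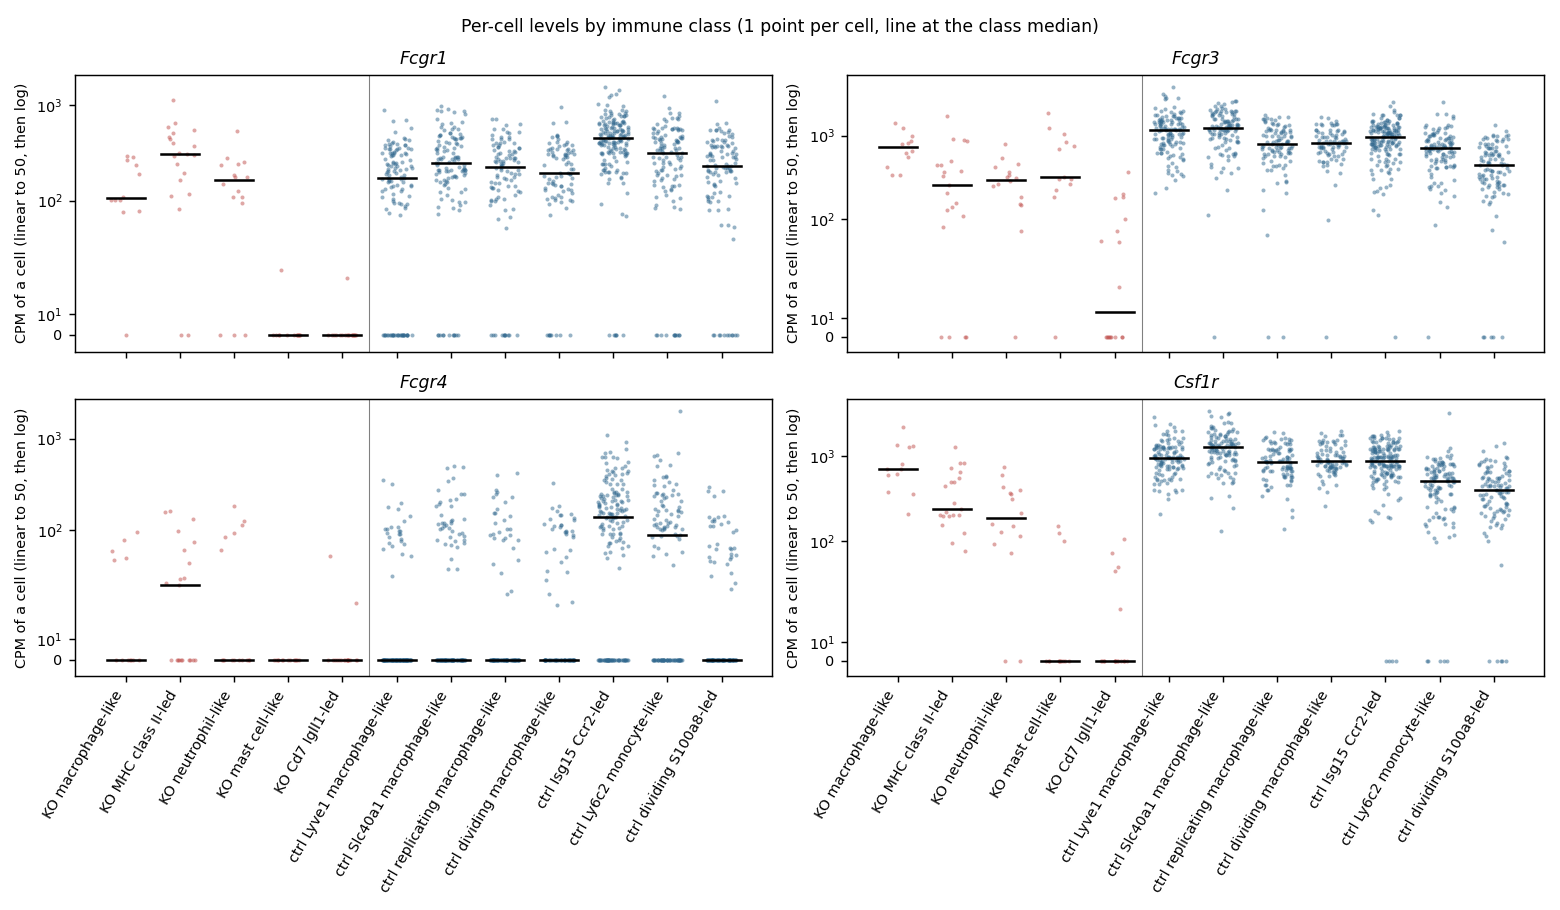
Level in each cell (1 point per cell, CPM of that cell, linear to 50 and logarithmic above) for Fcgr1, Fcgr3, Fcgr4 and Csf1r, with OGT KO classes on the left and control classes on the right of the line and a bar at each class median. Fcgr4 has a median of 0 in every macrophage-like class, against 139 CPM in Isg15 Ccr2-led cells of the control, and Csf1r is at 0 in most OGT KO mast cell-like and Cd7 Igll1-led cells.

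Because cells differed in depth, the share of cells with a UMI was also taken after thinning every cell to 5000 UMIs, which left out 1 OGT KO and 72 control immune cells. For Fcgr4 it was 50.7% (76 of 150) in Isg15 Ccr2-led cells, 43.6% (44 of 101) in Ly6c2 monocyte-like cells and 12.7% (14 of 110) in Lyve1 macrophage-like cells, beside 5.10% (5 of 98) in control epithelial-like cells. In OGT KO cells the Fcgr4 share was 3 of 12 cells in macrophage-like and 10.0% (2 of 20) in MHC class II-led cells. It was 0 of 13 in mast cell-like cells, beside 0 of 266 epithelial-like cells. Taking 3 cells as an approximate upper limit, these allow shares of up to about 23.1% and 1.13%. The unthinned shares for Fcgr4 were 72.3% in Isg15 Ccr2-led and 21.3% in Lyve1 macrophage-like cells. Among the control classes the shares ran in the order of the CPM. In OGT KO they went against it, since the MHC class II-led class had the higher CPM, so no order is read from them.

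Thinned shares for Fcgr1 were 80.0% in OGT KO MHC class II-led, 8 of 16 in neutrophil-like and 33.3% in macrophage-like cells, and 88.7% in Isg15 Ccr2-led, 75.2% in Ly6c2 monocyte-like and 66.4% in Lyve1 macrophage-like cells of the control. Fcgr3 was found in 12 of 12 OGT KO macrophage-like and 84.6% of mast cell-like cells, against 5.64% of OGT KO epithelial-like cells. Csf1r was found in 23.1% of OGT KO mast cell-like and 11.1% of Cd7 Igll1-led cells, against 6.02% of epithelial-like cells. In control epithelial-like cells Fcer1g was found in 93.9%, Tyrobp in 85.7%, Fcgr3 in 45.9% and Csf1r in 43.9%, against 31.6%, 31.2%, 5.64% and 6.02% in OGT KO epithelial-like cells. UMIs of these genes were thus counted in cells that should lack them, and in more of them in the control library, where median depth was 14509 UMIs in epithelial-like and 10570.0 in immune cells (in OGT KO 20909 and 15020.0).

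In the control library 3 or more of the 4 IgG receptor genes were found together in 104 of 150 thinned Isg15 Ccr2-led cells (69.3%), in 46.5% of Ly6c2 monocyte-like cells and in 39 of 110 Lyve1 macrophage-like cells (35.5%). In the OGT KO library they were found together in 9 of 20 MHC class II-led cells, 3 of 12 macrophage-like cells and 0 of 13 mast cell-like cells. All 7 genes were found in 0 of 79 OGT KO immune cells and in 62 of 733 control immune cells, of which 30 were Isg15 Ccr2-led. Fcer1g and Tyrobp were each found in all of those 733 cells, so a pair with either has a joint share equal to the product by arithmetic. The other pairs were found together about as often as the product of their single shares, for example 21.8% against 20.1% for Fcgr1 with Fcgr4. The strongest rank correlation among the 21 pairs over the 733 cells was 0.323, for Fcgr3 with Csf1r, which is weak. Both genes were found in 89.9% of these cells, which mix classes of different level. The same pair had 0.196 in macrophage-like, 0.307 in Isg15 Ccr2-led and -0.0519 in Ly6c2 monocyte-like cells. Within macrophage-like cells the strongest was 0.322, for Fcgr3 with Tyrobp.

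Comparisons between control classes asked whether the receptor set shifted with myeloid state, with at least 2-fold as the limit and all genes with at least 20 UMIs over both classes as background. Between the Isg15 Ccr2-led class and Lyve1 macrophage-like cells, Fcgr4 was higher by a ratio of 6.52 (4.60 to 9.51) and Fcgr1 by 2.24 (1.95 to 2.57). These 2 of 7 members passed 2-fold higher, against 7.14% of genes, and 0 passed 2-fold lower, against 8.79%. Fcgr2b had a ratio of 1.51 (1.24 to 1.85), Tyrobp 1.11 (1.06 to 1.16), Csf1r 0.935 (0.870 to 1.01), Fcer1g 0.907 (0.873 to 0.942) and Fcgr3 0.803 (0.749 to 0.860). So Fcgr1 and Fcgr4 were higher and Fcgr3 lower in the same comparison, with their shared chain Fcer1g near 1. At a coarser clustering resolution (0.5), where Lyve1 and Slc40a1 cells merge, the ratios were 4.30 for Fcgr4 and 1.85 for Fcgr1, and with at most 5% mitochondrial UMIs Fcgr4 had 4.16.

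Ly6c2 monocyte-like cells differed from Lyve1 macrophage-like cells in the same direction for Fcgr4, with a ratio of 4.61 (3.17 to 6.86), and for Fcgr1, with 1.66 (1.42 to 1.94). Fcgr3 was lower at 0.593 (0.544 to 0.646) and Csf1r at 0.543 (0.493 to 0.598), while Tyrobp was higher at 1.34 (1.27 to 1.4), Fcer1g had 0.868 (0.831 to 0.907) and Fcgr2b 0.836 (0.649 to 1.07). Of the 7, 1 passed 2-fold higher and 0 passed 2-fold lower, against 9.54% and 14.4% of genes. The Fcgr4 ratio was 2.28 at resolution 0.5 and 2.54 with at most 5% mitochondrial UMIs, and Csf1r passed 2-fold lower at resolution 0.5 (0.445) and with the epithelial-like level taken off (0.483).

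Fcgr4 passed the limit in 2 of the other 4 comparisons. Isg15 Ccr2-led over Ly6c2 monocyte-like cells gave ratios of 1.81 (1.46 to 2.26) for Fcgr2b, 1.72 (1.57 to 1.89) for Csf1r, 1.41 (1.17 to 1.72) for Fcgr4 and 0.829 (0.796 to 0.864) for Tyrobp, and 0 of 7 members passed 2-fold in either direction, against 4.96% higher and 3.57% lower. Fcgr2b passed it under 5 of the alternatives, with at most 2.43. The dividing S100a8-led class over Ly6c2 monocyte-like cells gave 0.264 (0.191 to 0.361) for Fcgr4 and 0.657 (0.595 to 0.726) for Fcgr3, with 0 of 7 higher against 8.55% and 1 lower, Fcgr4, against 2.75%. Slc40a1 over Lyve1 macrophage-like cells gave 2.12 (1.39 to 3.27) for Fcgr4, 1.36 (1.15 to 1.60) for Fcgr1 and 1.26 (1.17 to 1.36) for Csf1r, with 1 of 7 higher against 3.25% and 0 lower against 3.56%. Fcgr4 had 1.74 there when both libraries were clustered together in the second round, under the limit. Dividing over Lyve1 macrophage-like cells gave 0.679 (0.628 to 0.733) for Fcgr3, 0.702 (0.665 to 0.739) for Tyrobp and 1.63 (1.07 to 2.54) for Fcgr4, with 0 of 7 higher against 5.51% and 0 lower against 4.06%. Fcgr4 had 0.977 there with at most 5% mitochondrial UMIs and 1.08 at resolution 0.5.

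The balance of members within a class needs no scaling by totals. These ratios of UMIs are not corrected for transcript length, so only their change between classes can be read. Fcgr1 over Fcgr3 was 1.00 (0.772 to 1.30) in OGT KO MHC class II-led, 0.686 (0.465 to 1.00) in neutrophil-like, 0.218 (0.144 to 0.321) in macrophage-like and 0.0120 (0.000301 to 0.0690) in mast cell-like cells. In the control library it was 0.587 (0.522 to 0.661) in dividing S100a8-led, 0.502 (0.445 to 0.565) in Ly6c2 monocyte-like and 0.50 (0.462 to 0.542) in Isg15 Ccr2-led cells, above 0.310 (0.270 to 0.355), 0.30 (0.265 to 0.338), 0.232 (0.206 to 0.261) and 0.179 (0.157 to 0.204) in replicating, dividing, Slc40a1 and Lyve1 macrophage-like cells. The order put every macrophage-like class of both libraries below the OGT KO MHC class II-led and neutrophil-like and the 3 other control classes.

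Tyrobp over Fcer1g was 1.27 (1.07 to 1.53) in OGT KO mast cell-like, 1.19 (1.06 to 1.34) in neutrophil-like, 1.04 (0.935 to 1.16) in MHC class II-led and 0.699 (0.609 to 0.802) in macrophage-like cells. In the control library it was 1.07 (1.03 to 1.12) in Ly6c2 monocyte-like cells and 0.698 (0.667 to 0.731) in Lyve1 macrophage-like cells, with the lowest value, 0.559 (0.532 to 0.587), in dividing macrophage-like cells. Slc40a1 macrophage-like cells, at 0.863 (0.824 to 0.903), overlapped Isg15 Ccr2-led cells, at 0.853 (0.822 to 0.884), so this ratio did not set the macrophage-like classes apart. The 3 activating receptors over the inhibitory Fcgr2b were 20.4 (10.5 to 45.4) in OGT KO macrophage-like and 4.89 (3.62 to 6.70) in MHC class II-led cells, against 16.0 (13.3 to 19.4) in Slc40a1 macrophage-like, 12.4 (11.3 to 13.6) in all macrophage-like and 9.12 (8.16 to 10.2) in Isg15 Ccr2-led cells of the control. Replicating macrophage-like cells, at 9.43 (7.87 to 11.4), overlapped Isg15 Ccr2-led cells. Ly6c2 monocyte-like cells, at 12.1 (10.0 to 14.8), overlapped Lyve1 cells, at 12.2 (10.3 to 14.6). This ratio did not set the macrophage-like classes of the control apart either.

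**Figure D3:**
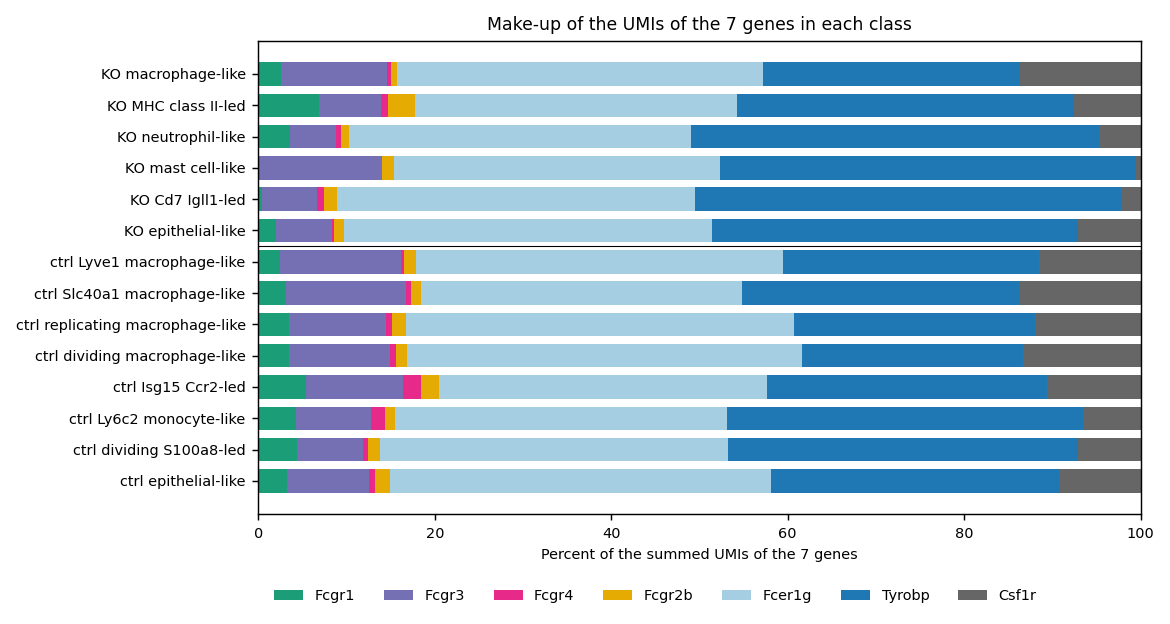
Share of each gene among the summed UMIs of all 7 in each class, in percent, with OGT KO classes above the line and control classes below it, and the epithelial-like cells of each library last in its block. Csf1r takes 13.7% in OGT KO macrophage-like cells and 0.50% in OGT KO mast cell-like cells, and Fcer1g takes 43.2% in control epithelial-like cells.

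Of the OGT KO classes, 3 were mixed, and the members differed inside them. These splits were chosen after their values were seen and describe single cells of 1 library. In the mast cell-like class, 7 cells had at least 5 UMIs of the mast cell protease gene Cma1 and 6 had fewer. Tyrobp stood at 625 CPM (85 UMIs, 499 to 772) in the Cma1-high cells and 3900.2 CPM (198 UMIs, 3376 to 4483) in the others. Fcgr3 stood at 220.4 CPM (30 UMIs, 149 to 315) in the Cma1-high cells and 1044 CPM (53 UMIs, 782 to 1366) in the others, and Fcer1g at 816 CPM (111 UMIs, 671 to 982) and 2186 CPM (111 UMIs, 1799 to 2633) in the same order. The Cma1-low cells carried Mcpt8, a basophil protease gene, at 1989.5 CPM, against 7.35 CPM in the Cma1-high cells. Fcgr2b had 1 UMI in Cma1-high and 7 UMIs in Cma1-low cells, and Fcgr4 had 0 in both. The class level of Tyrobp, 1515 CPM, was thus an average of cells far apart. Median depth was 16694 UMIs in Cma1-high and 7428 in Cma1-low cells.

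In the neutrophil-like class, 12 cells had a UMI of the monocyte receptor gene Ccr2 and 4 had none. Fcgr1 stood at 222 CPM (47 UMIs, 163 to 295) in the Ccr2-positive cells and 29.3 CPM (1 UMI, 0.742 to 163) in the others, and Csf1r at 283 CPM (60 UMIs, 216 to 364) and 87.9 CPM (3 UMIs, 18.1 to 257). Fcgr4 lay the other way, at 14.2 CPM (3 UMIs, 2.92 to 41.4) in the Ccr2-positive cells and 117 CPM (4 UMIs, 31.9 to 300.2) in the others. The 4 cells without Ccr2 held the neutrophil granule gene Ngp in 423 UMIs and S100a8 at 85302 CPM, against 2 UMIs and 13269 CPM in the 12 others. Levels given for the neutrophil-like class are thus mainly those of its Ccr2-positive cells.

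In the MHC class II-led class only 4 of 21 cells had at least 5 UMIs of H2-Ab1, and 4 had at least 5 of the complement gene C1qa. Fcgr3 stood at 132 CPM in the H2-Ab1-high cells, found in 1 of 4, and at 406 CPM in the others, found in 16 of 17. Fcgr3 stood at 723 CPM in C1qa-high and 251 CPM in C1qa-low cells, and Csf1r at 737 and 283 CPM. Fcgr1 did not follow C1qa, with 292 CPM in C1qa-high and 362 CPM in C1qa-low cells. With at most 5% mitochondrial UMIs the OGT KO clusters were redrawn, and the MHC class II-led class then held 9 cells with Fcgr1 at 102 CPM.

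**Figure D4:**
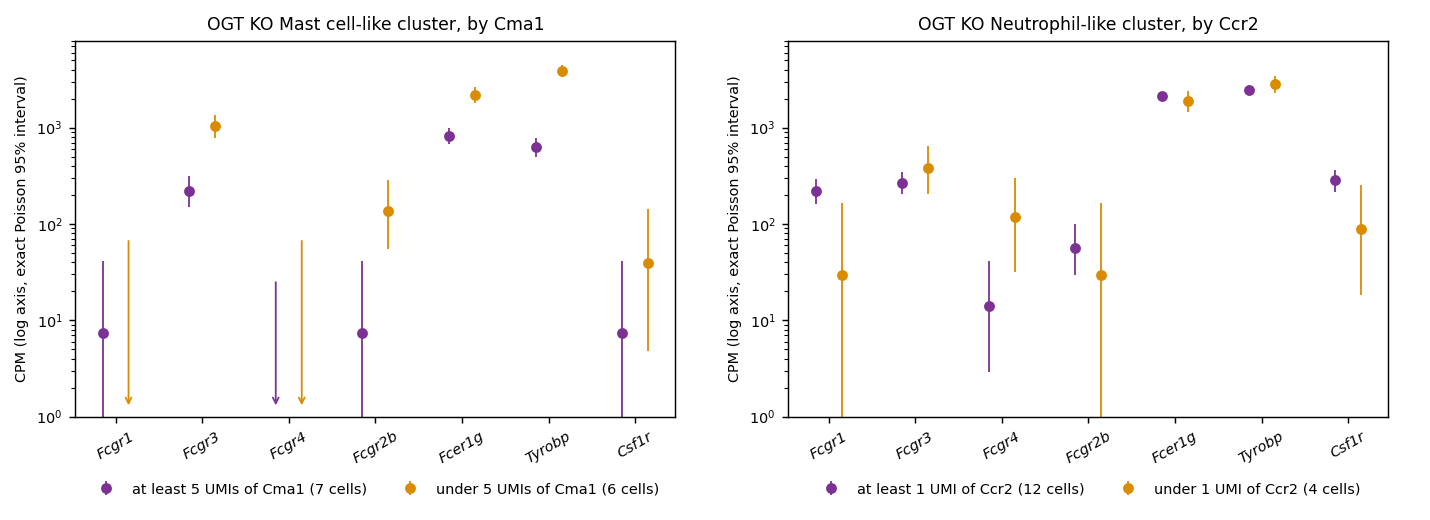
Level of each gene in CPM (log axis, exact Poisson 95% interval) in the OGT KO mast cell-like cells, split by at least 5 or fewer UMIs of Cma1 (7 and 6 cells), and in the OGT KO neutrophil-like cells, split by at least 1 or no UMI of Ccr2 (12 and 4 cells). Arrows drawn down from the upper limit mark 0 UMIs, and Tyrobp is at 625 CPM in Cma1-high and 3900.2 CPM in Cma1-low mast cell-like cells.

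Macrophage-like cells were the 1 class of the same name in both libraries, with 12 OGT KO and 420 control cells. Fcgr3 stood at 704 CPM in OGT KO and 1012 CPM in control macrophage-like cells, a ratio of 0.695 (0.586 to 0.819). Fcer1g stood at 2437 and 3334 CPM, a ratio of 0.731 (0.668 to 0.798), and Tyrobp at 1705 and 2280.2 CPM, a ratio of 0.748 (0.671 to 0.831). Each of the 7 lay below 1, and the interval of Fcgr4 alone crossed it. Csf1r stood at 804 CPM in OGT KO and 1018 CPM in control, a ratio of 0.790 (0.674 to 0.922). Fcgr1 stood at 153 and 249 CPM, a ratio of 0.616 (0.419 to 0.874), Fcgr2b at 43.1 and 105 CPM, a ratio of 0.409 (0.186 to 0.782), and Fcgr4 at 23.9 and 44.7 CPM, a ratio of 0.536 (0.172 to 1.27).

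Past a limit of 1.5-fold, 0 of 7 members were higher, against 18.4% of 9782 genes with at least 20 UMIs, and 3 of 7 (Fcgr1, Fcgr2b and Fcgr4) were lower, against 24.8%, so the threshold is passed by many genes at this number of cells. The values moved with the cells chosen. With at most 5% mitochondrial UMIs (16 OGT KO and 284 control macrophage-like cells) Fcgr2b had a ratio of 0.997, Fcgr1 0.847 and Fcgr4 0.811, none past the limit, and against Lyve1 macrophage-like cells alone Fcgr4 had 0.852 and Fcgr1 0.712. Against Lyve1 cells the ratios of Fcgr3, Fcgr2b, Fcer1g and Tyrobp lay further below 1. Their Lyve1 levels were 1199, 118, 3623 and 2529 CPM, and Fcgr3 was then past the limit. Csf1r changed little, with 1004 CPM in Lyve1 cells. Of the 12 OGT KO cells, 7 came from the Cd7 Igll1 cluster of the first clustering round, and without them Csf1r had 1.08, Tyrobp 0.906, Fcgr1 0.789, Fcgr4 0.775 and Fcgr3 0.639. Without the 5 highest cells of each side Csf1r had 0.504 and Fcgr3 0.568. Fcgr1 with the epithelial-like level taken off had 0.720. The 20 macrophage markers summed to 28755 CPM in OGT KO and 36466 CPM in control macrophage-like cells (1 and 0 of them at 0), with 0 higher and 3 lower past 1.5-fold, and their part in these ratios was not tested. Acinar markers summed to 6699 CPM in OGT KO and 3620.2 CPM in control macrophage-like cells, and mesenchyme markers to 1015 and 353 CPM. The part of this RNA of other cell types was not tested.

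Over all immune cells each member was lower in OGT KO, by ratios of 0.271 (0.180 to 0.393) for Fcgr4, 0.330 (0.297 to 0.367) for Csf1r, 0.378 (0.343 to 0.417) for Fcgr3, 0.479 (0.458 to 0.501) for Fcer1g, 0.492 (0.425 to 0.567) for Fcgr1, 0.570 (0.453 to 0.709) for Fcgr2b and 0.610 (0.583 to 0.638) for Tyrobp. In this comparison 0 of 7 were at least 1.5-fold higher, against 20.4% of 11189 genes, and 7 of 7 were lower, against 16.5%. The libraries differ in make-up, with macrophage-like cells making up 12 of 80 OGT KO and 420 of 805 control immune cells, and all 20 macrophage markers were lower past 1.5-fold (7588 CPM in OGT KO and 27101 CPM in control). How much of the members' ratios this accounts for was not tested. Tyrobp had 0.675 as a mean of the cells' own CPM and 0.696 with the epithelial-like level taken off, and Fcgr2b 0.683 with that level taken off, all under the limit.

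**Figure D5:**
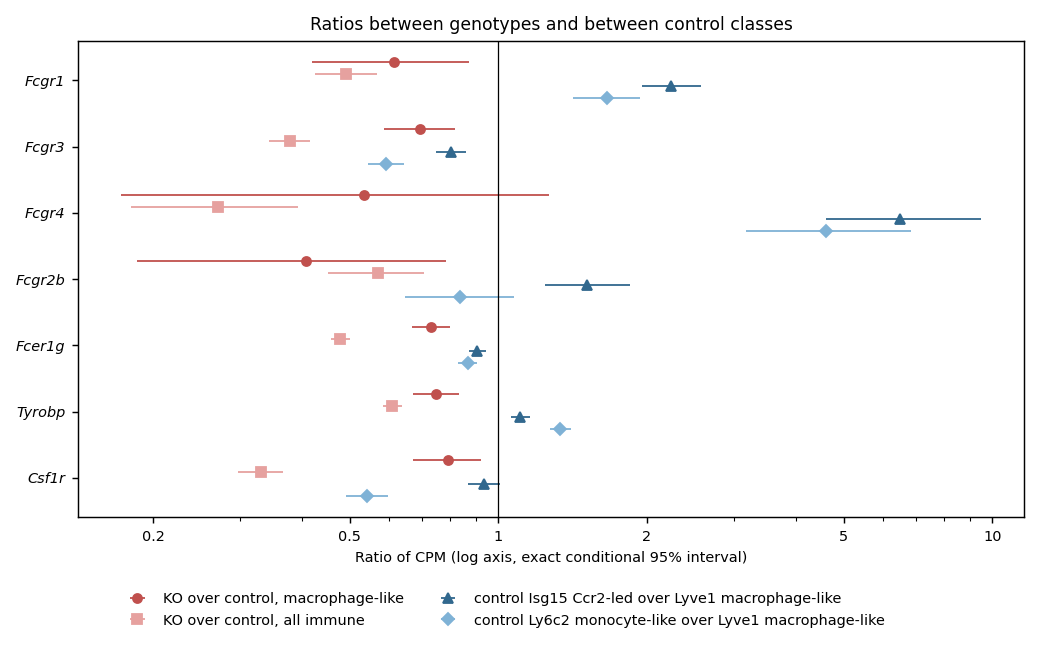
Ratio of CPM (log axis, exact conditional 95% interval) for each gene, OGT KO over control in macrophage-like cells and in all immune cells (red), and Isg15 Ccr2-led and Ly6c2 monocyte-like over Lyve1 macrophage-like cells within the control library (blue). The OGT KO points lie left of 1 for each gene, and the control class ratios run from 0.543 for Csf1r to 6.52 for Fcgr4.

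The partners of the members were followed as lists, whose counts stand beside the shares of all genes past 2-fold given above, 7.14% higher and 8.79% lower in Isg15 Ccr2-led and 9.54% and 14.4% in monocyte-like over Lyve1 cells. Median log2 ratios were taken with 10 CPM added to both classes, which pulls the ratios of sparse genes toward 1. The ratios of named genes and the counts past a limit had nothing added. A gene was measured with at least 20 UMIs over both classes together, so it could enter through the class where it is high. List counts therefore favour genes high in 1 class and are given as description only. The shares of all genes were taken with the same filter. The list drawn up for receptors that pair with Tyrobp was compared first between Isg15 Ccr2-led and Lyve1 macrophage-like cells of the control. There 12 of 15 measured genes were at least 2-fold higher and 1 lower, with a median log2 ratio of 1.08, beside -0.06 over all genes tested. In Ly6c2 monocyte-like over Lyve1 cells 13 of 16 were higher and 1 lower (median 1.60, all genes -0.09). The list also holds 2 genes that are no such receptors. Siglece, an inhibitory receptor gene, had 2.05 in Isg15 Ccr2-led and 2.23 in monocyte-like over Lyve1 cells. Hcst, the gene of another adaptor chain, had 1.13 and 1.57. Itgb2, the shared integrin beta chain of leukocytes, measured 201 CPM in monocyte-like and 43.3 CPM in Lyve1 cells, a ratio of 4.65 (3.44 to 6.37), and its partner Itgam measured 128 CPM in monocyte-like and 29.7 CPM in Lyve1 cells, a ratio of 4.30 (2.98 to 6.34). Sirpb1c, an activating receptor gene with close copies, was named after its values were seen, with 159 UMIs in monocyte-like cells and 0 in Lyve1 cells. Pilra, which belongs to the list of inhibitory receptors and not to this one, measured 128 CPM in Isg15 Ccr2-led and 12 CPM in Lyve1 cells, a ratio of 10.6 (6.31 to 19.2). Tyrobp itself had 1.11 in Isg15 Ccr2-led and 1.34 in monocyte-like over Lyve1 cells.

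Of other receptors that pair with Fcer1g, 5 of 6 were higher and 0 lower in monocyte-like over Lyve1 cells (median 1.92), and 3 of 5 higher and 0 lower in Isg15 Ccr2-led cells (median 0.88). Of all genes, 9.54% were higher and 14.4% lower in the monocyte-like comparison. Pira2, an activating paired receptor gene, measured 91.7 CPM in monocyte-like and 4.01 CPM in Lyve1 cells, a ratio of 22.9 (9.49 to 71.8). The fungal lectin receptor gene Clec4n measured 310.3 CPM in monocyte-like and 146 CPM in Lyve1 cells, a ratio of 2.12 (1.77 to 2.55). Fcer1g itself had 0.868. Of the 5 genes past 2-fold higher, Cd300lf, Clec4d and Clec4e had 3 UMIs each in Lyve1 cells, and Pira2 had 5. They were measured only through their UMIs in monocyte-like cells, so no shift of the partners is read from this count.

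Among ITAM kinases and adaptors 8 of 17 were higher and 0 lower in monocyte-like over Lyve1 cells (median 0.50), and 6 of 17 higher and 0 lower in Isg15 Ccr2-led cells (median 0.40), against 9.54% and 14.4% of all genes in monocyte-like cells and 7.14% and 8.79% in Isg15 Ccr2-led cells. The Src-family kinase genes included Fgr at 120.0 CPM in monocyte-like and 3.21 CPM in Lyve1 cells, a ratio of 37.4 (14.3 to 139) and Lyn at 405 CPM in monocyte-like and 163 CPM in Lyve1 cells, a ratio of 2.48 (2.10 to 2.94). Phosphatases of inhibitory receptors had 2 of 8 higher and 0 lower (median 0.33). Of inhibitory receptors 4 of 10 were higher and 2 lower, against the same shares of all genes. Pirb measured 187 CPM in monocyte-like and 16.9 CPM in Lyve1 cells, a ratio of 11.1 (7.07 to 18.3), and Cd200r1, the receptor for CD200, measured 16.3 CPM in monocyte-like and 100.3 CPM in Lyve1 cells, a ratio of 0.162 (0.0946 to 0.264).

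Of the other Fc receptors, Fcgrt, which salvages IgG inside cells, was lower than in Lyve1 cells in both classes and measured 219 CPM in monocyte-like and 1150.2 CPM in Lyve1 cells, a ratio of 0.191 (0.166 to 0.218), and 352 CPM in Isg15 Ccr2-led and 1150.2 CPM in Lyve1 cells, a ratio of 0.306 (0.279 to 0.335). Fcrls, an Fc receptor-like gene known from mouse microglia, measured 85.7 CPM in monocyte-like and 875 CPM in Lyve1 cells, a ratio of 0.0980 (0.0790 to 0.120). Of this list 2 of 2 measured genes were at least 2-fold lower in monocyte-like cells. Csf2ra and Csf3r, receptors for the colony-stimulating factors of granulocytes and macrophages, measured 261 CPM in monocyte-like and 64.2 CPM in Lyve1 cells, a ratio of 4.07 (3.17 to 5.28), and 104 CPM in monocyte-like and 19.3 CPM in Lyve1 cells, a ratio of 5.38 (3.45 to 8.73), the opposite direction to Csf1r (0.543). The list of colony-stimulating factor genes had 3 of 5 higher and 0 lower, and of all genes 9.54% and 14.4% were.

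Myeloid transcription factors had 8 of 16 higher and 2 lower in monocyte-like over Lyve1 cells (median 0.70, all genes -0.09), against 9.54% and 14.4% of all genes, so the share lower was near the background. Spi1, which encodes PU.1, measured 582 CPM in monocyte-like and 438 CPM in Lyve1 cells, a ratio of 1.33 (1.18 to 1.49). Cebpb measured 1496 CPM in monocyte-like and 323 CPM in Lyve1 cells, a ratio of 4.64 (4.16 to 5.18), and Maf measured 105 CPM in monocyte-like and 857 CPM in Lyve1 cells, a ratio of 0.123 (0.101 to 0.148). Counts of Spi1 RNA do not measure PU.1 protein or its binding, and its part in the levels of the members was not tested.

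Between OGT KO and control macrophage-like cells most lists lay below the all-gene median of -0.01 (log2). Other receptors that pair with Fcer1g had 0 of 6 at least 1.5-fold higher and 4 lower (median -0.57), inhibitory receptors 0 of 10 and 5 (-0.44), the Tyrobp list 1 of 11 and 5 (-0.37), and ITAM kinases and adaptors 1 of 19 and 7 (-0.18). The Tyrobp list again held Siglece and Hcst, at ratios of 0.646 and 0.605. Of all genes, 18.4% were higher and 24.8% lower in this comparison, and with lists this short the counts are read no further. Clec4n measured 101 CPM in OGT KO and 225 CPM in control, a ratio of 0.447 (0.276 to 0.687), and Clec4a2, an inhibitory lectin receptor gene, 168 CPM in OGT KO and 339.7 CPM in control, a ratio of 0.493 (0.343 to 0.689). Trem2, the lipid receptor that signals through Tyrobp, measured 364 CPM in OGT KO and 372 CPM in control, a ratio of 0.977 (0.767 to 1.23), and Spi1 measured 508 CPM in OGT KO and 455 CPM in control, a ratio of 1.12 (0.909 to 1.36). Both intervals include 1. Id3 measured 86.2 CPM in OGT KO and 21.0 CPM in control, a ratio of 4.10 (2.34 to 6.79), and Cd200r1 measured 14.4 CPM in OGT KO and 58.5 CPM in control, a ratio of 0.245 (0.0503 to 0.725). Over all immune cells Runx3, which encodes a Runx factor, was the 1 list gene past 4-fold among those with at least 100 UMIs, with 49.0 CPM in OGT KO and 6.99 CPM in control, a ratio of 7.01 (4.91 to 10.0).

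Csf1, a ligand of Csf1r, named after its values were seen, stood at 85.6 CPM in OGT KO mast cell-like cells and 0.925 CPM in all control immune cells, with 24.4 CPM in OGT KO mesenchyme-like and 20.6 CPM in mesothelium-like cells. The same mast cell-like cells held Csf2rb, a chain shared by the receptors for IL-3, IL-5 and GM-CSF, at 299.7 CPM. Trem2, a Tyrobp partner, had 0 UMIs there, beside Tyrobp at 1515 CPM.

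Across the 20 classes of both libraries with at least 15 cells, epithelial-like and mesenchyme-like ones included, the genes most like each member were taken by Pearson correlation of log2(CPM + 10). For Fcgr1 they were Ms4a6c (0.994), Clec4a2 (0.991), Clec4a1 (0.988), for Fcgr2b Ly86 (0.986), Ms4a6b (0.984), Unc93b1 (0.982) and for Fcgr4 Il10ra (0.973), Calhm6 (0.966), Gbp3 (0.963). For Fcgr3 they were Fcer1g (0.991), Csf1r (0.991), Ms4a6b (0.984), for Fcer1g Fcgr3 (0.991), Tyrobp (0.991), Spi1 (0.991), for Tyrobp Pld4 (0.992), Spi1 (0.992), Fcer1g (0.991) and for Csf1r Adgre1 (0.991), Fcgr3 (0.991), Hfe (0.989). Over these 20 classes Fcgr3 had Fcer1g and Csf1r as its nearest genes, and no member was among the 5 nearest to Fcgr1, Fcgr2b or Fcgr4. These values describe 20 points that share 2 libraries, their depth and the contrast of immune with other cells. Over the 10 immune classes alone, Lamp1 (0.994), Grn (0.989) and Trem2 (0.988) were nearest to Fcgr3. Csf1r was at rank 4 (0.987) and Fcer1g at rank 43 (0.960). There no member was among the 5 nearest to Fcer1g or Tyrobp either.

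In epithelial-like cells the members stood at 1.46% (Fcgr4) to 4.56% (Fcer1g) of the OGT KO immune level and at 10.8% (Fcgr4) to 19.1% (Fcgr2b) of the control immune level. Among the UMIs of all 7, Fcer1g made up 41.7% in epithelial-like and 38.6% in immune cells of OGT KO, and 43.2% and 39.8% in control. Csf1r made up 7.14% and 7.16% in OGT KO and 9.29% and 10.7% in control. Ctrb1, a digestive enzyme gene of acinar cells, stood in turn at 1923 CPM in OGT KO and 1369.7 CPM in control immune cells.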

How the data were processed

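The deposited values are whole UMI counts per gene and cell from 10x libraries, 1 table per genotype. The submitters' processing notes name Cell Ranger 2.0.0, the build mm10, Seurat 2.0 and DESeq2 1.14.1 as what the authors used. The 7 genes and all lists were chosen with earlier results of these data known, and the rule that names clusters and the splits of OGT KO clusters were settled after the data had been seen.

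Barcodes under 500 genes or over 10% mitochondrial UMIs and doublets marked by Scrublet were left out (scanpy 1.11.5). Both libraries were clustered together (2000 variable genes, 30 components, 15 neighbours, Leiden resolution 1, leidenalg 0.10.2), then immune cells of each library alone (1500 genes, 20 components, 15 neighbours, 10 in OGT KO, resolution 0.8), without the 7 genes. A class was named from marker lists with at least 3 markers detected (50 CPM and 0.25 of the highest level) unless its 10 leading genes held more markers of another type. UMIs were summed per class and scaled to CPM. Intervals are exact Poisson, conditional or binomial at 95%, and free of any test. For shares of 0 cells the upper limit is approximate, taken as 3 cells. Named partner genes are the 4 highest of each list over control immune cells and those past 4-fold with at least 100 UMIs, at most 3 in each direction, of which examples are given and 1 is not reported here. TMM (edgeR 4.0.16) and size factors (DESeq2 1.42.0) served as scaling alternatives. Calculations were tested on simulated data.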

Additional observations from a re-analysis of the deposited data

How the results depend on the processing

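No paired analysis was possible because the replicate numbers mark sequencing runs of 1 library per genotype and no test was made. No ratio past its limit changed direction under any alternative run. A stricter minimum of genes per cell left every class at the same number of cells. The causes were not tested. Leaving out the 5 highest cells takes 5 of 12 OGT KO but 5 of 420 control macrophage-like cells. Over all immune cells it takes 5 of 80 and 5 of 805. This alternative thus pulls the OGT KO over control ratios down by construction. For OGT KO over control macrophage-like cells, ratios moved by more than counting error with at most 5% mitochondrial UMIs (Fcgr2b 0.997), without the 5 cells with the most UMIs of the gene (Fcgr3 0.568, Tyrobp 0.664, Csf1r 0.504), with doublets kept (Fcer1g 0.657, Tyrobp 0.612, Csf1r 0.646), and, under alternatives chosen after seeing the data, with the epithelial-like level taken off (Fcer1g 0.849, Tyrobp 0.875) and without OGT KO cells of the first-round Cd7 Igll1 cluster (Tyrobp 0.906, Csf1r 1.08). Over all immune cells they moved without the 5 highest cells (Fcgr1 0.362, Fcgr2b 0.385, Fcgr3 0.321, Fcer1g 0.454, Tyrobp 0.578, Csf1r 0.257), as means of the cells' own CPM (Fcgr3 0.419, Fcer1g 0.505, Tyrobp 0.675), with the epithelial-like level taken off (Fcgr3 0.423, Fcer1g 0.553, Tyrobp 0.696, Csf1r 0.367), with TMM (Fcer1g 0.450, Tyrobp 0.574), with DESeq2 size factors (Fcer1g 0.451, Tyrobp 0.575) and with doublets kept (Tyrobp 0.571). Isg15 Ccr2-led over Lyve1 macrophage-like ratios moved at resolution 0.5 (Fcgr1 1.85, Fcgr4 4.30, Tyrobp 1.04, Csf1r 0.834), with at most 5% mitochondrial UMIs (Fcgr2b 1.86, Fcgr4 4.16), with doublets kept (Fcer1g 0.945, Tyrobp 1.18), with both libraries in the second round (Fcer1g 0.846, Csf1r 0.836), with TMM (Fcer1g 0.963, Tyrobp 1.18) and with DESeq2 size factors (Fcer1g 0.960, Tyrobp 1.17). Ly6c2 monocyte-like over Lyve1 ratios moved at resolution 0.5 (Fcgr1 1.30, Fcgr3 0.515, Fcgr4 2.28, Tyrobp 1.19, Csf1r 0.445), with at most 5% mitochondrial UMIs (Fcgr4 2.54, Tyrobp 1.24), with both libraries in the second round (Fcer1g 0.813, Tyrobp 1.27), with the epithelial-like level taken off (Tyrobp 1.4, Csf1r 0.483), with TMM (Fcer1g 0.944, Tyrobp 1.45) and with DESeq2 size factors (Fcer1g 0.945, Tyrobp 1.46).

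Background counts in macrophage-like cells were 1803 higher and 2428 lower, against 3418 and 6088 with no UMI filter and 1083 higher with at least 50 UMIs. Over all immune cells they were 2284 higher and 1850.0 lower, against 5081 and 4000.0 with no filter and 1496 higher with at least 50 UMIs. Of 854 class levels, 623 moved by less than counting error, and 37 moved by more than 1.5-fold, chiefly in the small OGT KO classes. Some classes were not found again, so no value was had for Slc40a1 and replicating macrophage-like cells with at most 5% mitochondrial UMIs, for dividing macrophage-like cells with doublets kept, and for 4 OGT KO classes with both libraries in the second round. The comparison with Lyve1 macrophage-like cells alone was also chosen after seeing the data. Depth limits Fcgr4 and Fcgr2b most, with 5 and 9 UMIs in OGT KO macrophage-like cells.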

Other observations

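Female-looking (Xist and no Y-linked UMI) and male-looking control macrophage-like cells (75 and 190 cells of the 1 library) were set side by side because OGT KO immune cells looked female. Fcgr3, a low-affinity IgG receptor, stood at 932 CPM in female-looking and 1046 CPM in male-looking cells, a ratio of 0.890 (0.822 to 0.963), and Fcgr1 at 273 CPM in female-looking and 243 CPM in male-looking cells, a ratio of 1.12 (0.964 to 1.31). Csf1r stood at 1013 CPM in female-looking and 1029 CPM in male-looking cells, a ratio of 0.984 (0.911 to 1.06). The ratios of the other members also had intervals that include 1, as that of Fcgr1 did and that of Fcgr3 did not.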
